A study of Mus musculus with 31 samples.

Results

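H19 and Igf2 are neighbouring imprinted genes on mouse chromosome 7, and the 150 kb window chr7:149730001-149880000 (build mm9), chosen to hold both genes and the imprinting control region between them, is described here. Its members were all peaks that overlapped this window in 26 lists from chromatin immunoprecipitation followed by sequencing (ChIP-seq), 1214 of 17061930 deposited peaks. NIPBL, the protein that loads cohesin onto DNA, gave 979 of them in 10 lists, and Rad21, a subunit of the cohesin ring, gave 235 in 16 lists. All cells lacked AID, the enzyme that starts antibody class switching, and carried the C57BL/6 strain label. Stimulated CH12F3 cells, a mouse B lymphoma line, had received anti-CD40, IL-4 and TGF-β for 24 h (2 NIPBL and 4 Rad21 libraries), and unstimulated CH12F3 cells had received none of these (2 NIPBL and 3 Rad21 libraries). Stimulated mature splenic B cells had received anti-CD40 and IL-4 for 48 h (3 NIPBL and 3 Rad21 libraries), and unstimulated splenic B cells were taken without stimulation (3 and 3). A further CH12F3 derivative named i3CBEs, a name the labels do not expand, was stimulated in the same way as CH12F3 and profiled for Rad21 (3 libraries). The titles call the parent line CH12F3NCdel, and the labels do not say whether it or i3CBEs is a single clone. By its title, the study concerns chromatin loop extrusion in antibody class switching, and the window lies away from the antibody heavy-chain locus.

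In textbook accounts, the imprinting control region lies upstream of H19 and binds the insulator protein CTCF on the unmethylated maternal allele, where it keeps Igf2 from enhancers that lie beyond H19. Cohesin, loaded by NIPBL, extrudes chromatin loops and stops at bound CTCF, so that Rad21 peaks at insulators of this kind are widely seen. H19 encodes a long non-coding RNA and Igf2 an insulin-like growth factor, expressed from opposite parental alleles and mainly in fetal tissue. The peak lists do not separate the parental alleles and hold no expression values, so neither imprinting nor the labelled cell types could be checked here.

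H19 and Igf2 each carry a microRNA, and the 4 mature microRNAs are shown because they are the RNA products of the domain whose sequences are at hand. The sequences are RefSeq's (GRCm38.p6, chromosome 7, minus strand), written 5′ to 3′ with the seed, bases 2 to 8, in capitals.
mmu-miR-675-5p: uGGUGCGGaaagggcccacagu
mmu-miR-675-3p: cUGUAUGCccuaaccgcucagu
mmu-miR-483-5p: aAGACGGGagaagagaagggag
mmu-miR-483-3p: uCACUCCUccccucccgucuu
The first pair is cut from the hairpin of H19 and the second pair from a hairpin within Igf2, and the 4 seeds all differ. In the order of genes in that assembly, Mrpl23 and Nctc1 come before H19, and Igf2, Igf2os and Ins2 (an insulin gene) follow it at higher coordinates. No mm9 annotation was used, so no peak below is assigned to a gene, a promoter, a microRNA or the imprinting control region, and sites are given by mm9 position.

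Rad21 was concentrated at 4 narrow sites. Lymphoma and splenic cells shared them, except that site 2 was among the strongest peaks in 0 of 3 unstimulated splenic libraries. NIPBL was spread along the window in many short peaks, few of them among the strongest of their lists. A site is a run of overlapping Rad21 peaks that were among the 20000 peaks of their list with the highest -log10 p, in 2 or more libraries. Site 1 spans chr7:149765825-149768089 (2265 bp), site 2 chr7:149796481-149796863 (383 bp), site 3 chr7:149857809-149858637 (829 bp) and site 4 chr7:149861309-149862018 (710 bp). Gaps of 28391, 60945 and 2671 bp separate them in turn, so that sites 3 and 4 form a close pair. Over the genome 29891 Rad21 sites were found in the same way. The median tile of 150 kb held 1 such site, and 18.4% of 17577 tiles held 4 or more.

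**Figure D1:**
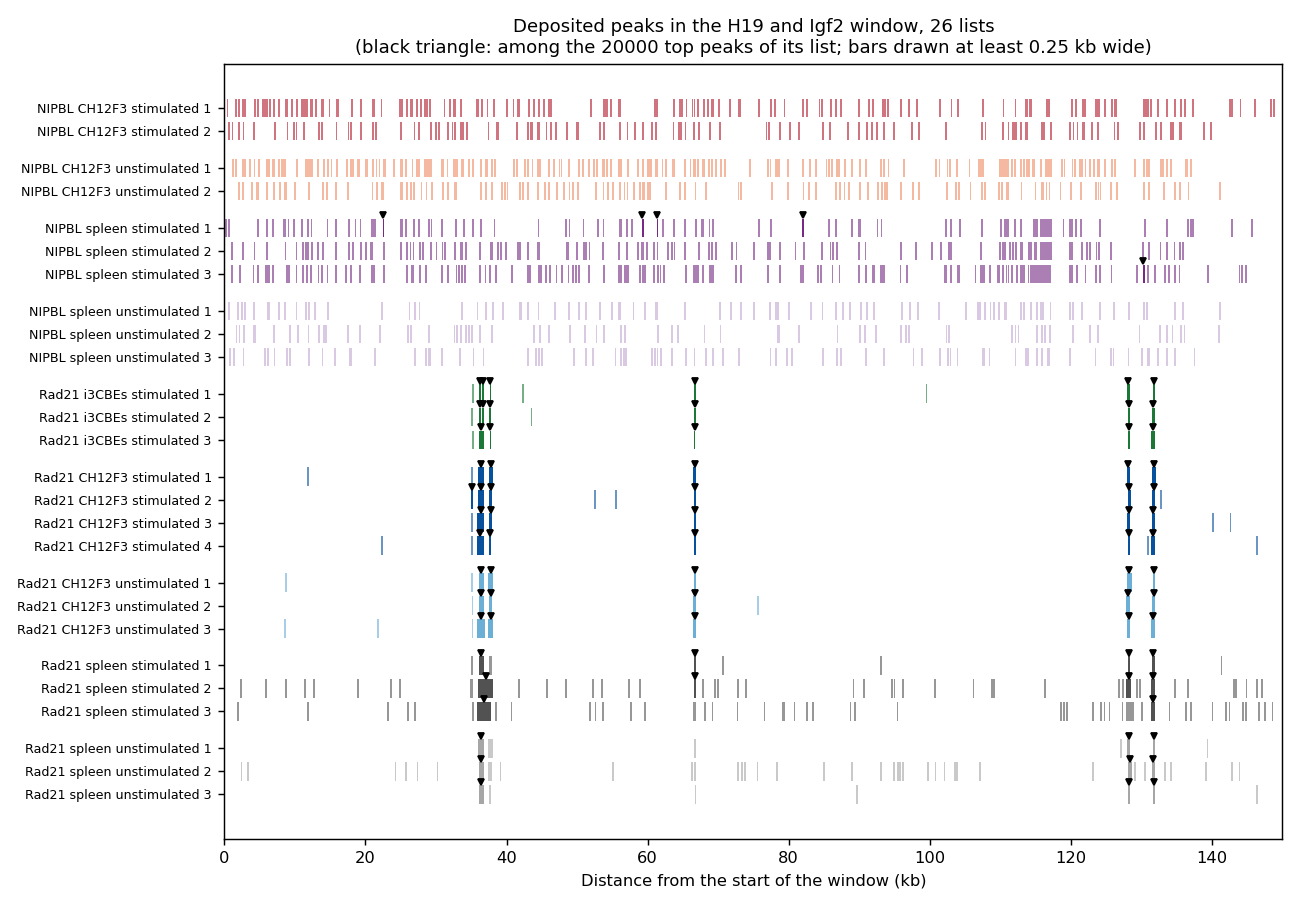
All deposited peaks of the 26 lists, 1 row per library, against the distance from the start of the window in kb, with tested groups above their references and black triangles on peaks among the 20000 top peaks of their list. Triangles line up at the 4 Rad21 sites in the Rad21 rows, while the NIPBL rows show many peaks and 5 triangles in all.

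Sites 1 and 4 were among the 20000 top peaks in 16 of 16 Rad21 libraries, site 3 in 15 and site 2 in 12. Genome-wide, 29.4% of the 29891 sites were in all 16. The lists differed in length, from 42659 to 1236385 peaks for Rad21 and from 890499 to 1332862 for NIPBL, which is why equal numbers of top peaks were compared. Splenic Rad21 lists of stimulated replicates 2 and 3 and unstimulated replicate 2 stood apart, with 1166191 to 1236385 peaks, against 42659 to 292078 in the other 13. Without these 3, the sites were in 13, 11, 13 and 13 of 13 libraries in turn.

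Site 4 carried the strongest peak of the window in most lists. Its fold enrichment, the authors' own value for a peak in its list, was 11.8, 11.1 and 9.02 in i3CBEs, and in every one of these lists it exceeded that of the other 3 sites. In CH12F3 it was 25.1, 13.6, 17.9 and 10.7 in stimulated cells, and 24.0, 15.4 and 15.2 in unstimulated cells, again the highest of the 4 sites in each list. In stimulated spleen it was 6.32, 17.2 and 7.19, and in unstimulated spleen 12.1, 11.9 and 4.81. By -log10 p, site 4 led in 12 of 16 lists, among them all 10 of CH12F3 and i3CBEs, and site 3 led in the other 4, which were the 3 unstimulated splenic lists and stimulated splenic replicate 1.

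Site 3, the near neighbour of site 4, had folds of 6.14, 9.45 and 7.88 in i3CBEs, of 19.1, 11.1, 11.7 and 9.36 in stimulated CH12F3 and of 11.9, 10.3 and 13.3 in unstimulated CH12F3. In spleen it had 6.58, 11.7 and 5.52 in stimulated cells and 12.1, 12.3 and 6.51 in unstimulated cells. Stimulated splenic replicate 3 was the 1 library where it missed the top peaks, at rank 27705 of its list. In unstimulated spleen sites 3 and 4 were nearly level in replicates 1 and 2, whereas in the 7 CH12F3 lists site 4 was above site 3 throughout.

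**Figure D2:**
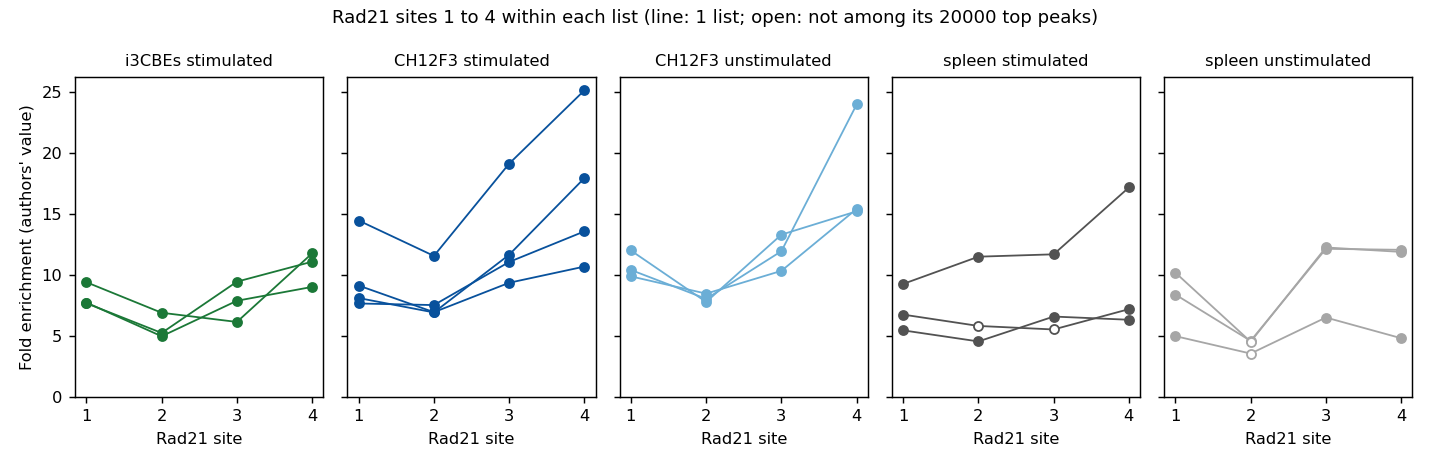
Fold enrichment of the strongest Rad21 peak at sites 1 to 4 (the authors' value, linear axis), 1 line per list, with open points where the peak was not among the 20000 top peaks. Lines of CH12F3 climb to site 4, up to 25.1, while those of unstimulated spleen replicates 1 and 2 are nearly level between sites 3 and 4, and all 3 unstimulated splenic lists have open points at site 2.

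Site 2 was the weakest of the 4 in 13 of 16 lists and the one found among the top peaks in the fewest lists. It was among the 20000 top peaks in all 3 i3CBEs libraries, all 7 CH12F3 libraries and stimulated splenic replicates 1 and 2, and in 0 of 3 unstimulated splenic libraries. Its rank was 18369, 11678 and 22377 in stimulated spleen, against 44454, 200516 and 62411 in unstimulated spleen. These ranks rest on lists with unlike thresholds, since the last of the 20000 top peaks had a -log10 q of 3.10, 12.3 and 6.92 in stimulated and 12.1, 11.8 and 3.68 in unstimulated spleen. In replicate 1 the peak at site 2 had a -log10 p of 6.14 in stimulated spleen, where it was a top peak, and of 6.39 in unstimulated spleen, where it was not. Some deposited peak lay over it in all 16 libraries, with folds of 4.54, 11.5 and 5.81 in stimulated and 4.59, 4.52 and 3.55 in unstimulated spleen. Of the 14420 genome-wide sites in all 7 CH12F3 libraries, 7.67% were in 2 or more stimulated and no unstimulated splenic libraries, and 0.499% showed the converse. Of the same sites 17.8% were among the top peaks of no unstimulated splenic library, so the absence of site 2 there is not particular to it.

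Site 1, the widest, was made of separate peaks. In 12 of 16 lists it held 2 peaks, with 467 to 880 bases (median 757) between the last pair over the lists with 2 or more. In i3CBEs replicates 1 and 2 the left peak was itself split, giving 3 peaks. In stimulated splenic replicates 2 and 3 a single peak of 2127 and 2013 bp ran over the whole site, and these are among the 3 long lists. The left peak was among the top peaks in every one of the 14 split lists. The right peak was among them in all 10 CH12F3 and i3CBEs libraries but ranked 20855 in stimulated splenic replicate 1 and 25613, 29432 and 35591 in unstimulated spleen. In stimulated CH12F3 replicates 1 to 4 the right peak had folds of 11.5, 7.66, 8.10 and 9.13 and the left peak 14.5, 7.75, 7.05 and 8.12. In unstimulated CH12F3 the right peak had 8.65, 9.88 and 9.76 and the left peak 10.4, 9.38 and 12.0, so that the right peak was the weaker in 4 of 7 CH12F3 lists. It was also weaker than the strongest left peak in all 3 i3CBEs lists, and weaker in 3 of 3 lists of unstimulated spleen, there at 6.36, 6.56 and 4.0 beside 8.39, 10.2 and 4.98 for the left one. The peaks of site 1 were told apart after their values were seen.

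**Figure D3:**
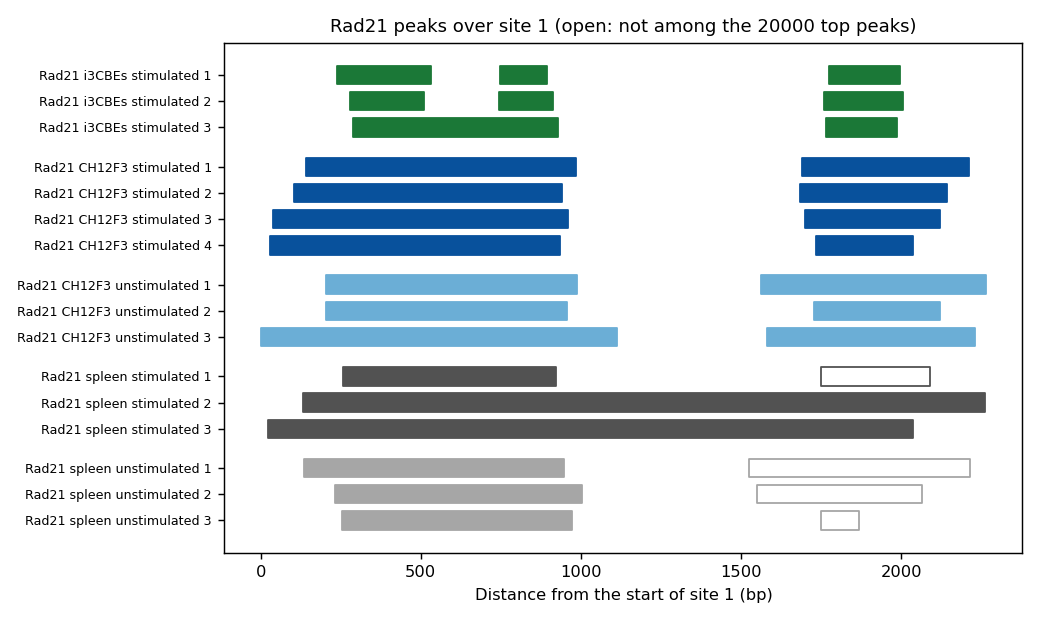
Rad21 peaks over site 1 in 16 lists, 1 row each, against the distance in bp from the start of the site, open where the peak was not among the 20000 top peaks. A left and a right peak are seen in most rows, the right one open in unstimulated spleen, and a single long bar in stimulated splenic replicates 2 and 3.

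A smaller Rad21 peak lay 572 bp before site 1, at chr7:149765021-149765252, and was among the top peaks in 1 library (stimulated CH12F3 replicate 2, rank 19848). A deposited peak of any rank lay there in all 3 i3CBEs, all 7 CH12F3 and all 3 stimulated splenic libraries, and in 0 of 3 unstimulated splenic libraries. In stimulated spleen these peaks were 51, 459 and 104 bp wide, with folds of 3.35, 3.17 and 3.86 and ranks of 70734, 486262 and 233137. How many places of the genome showed the same pattern with peaks of any rank was not counted. The stimulated splenic lists held 149409, 1166191 and 1236385 peaks and the unstimulated ones 292078, 1177389 and 152152. The part of list length was not tested.

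The amount of Rad21 in the window was compared between cell states as the percent of its bases covered by the 20000 top peaks of each list, with exact permutation tests (two-sided) whose p-values were adjusted over 9 comparisons. Stimulated spleen had 1.05%, 2.51% and 1.71% of the window covered, and unstimulated spleen 1.02%, 1.18% and 0.866%. The difference was 0.737 points, with means of 1.76 ± 0.731 and 1.02 ± 0.155 (SD, n = 3 each, exact p = 0.2, adjusted 0.3, smallest p possible 0.1). The higher values were those of the long lists of stimulated replicates 2 and 3. Stimulated CH12F3 had 1.82%, 1.68%, 1.56% and 1.44%, and unstimulated CH12F3 1.89%, 1.59% and 2.13%. That difference was -0.246 points, with overlapping groups (exact p = 0.2, adjusted 0.3).

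Bins of 10 kb were tested with limma over the whole genome, with a Benjamini-Hochberg adjusted p under 0.05 as a call, and the 4 bins tested in the window were those of the Rad21 sites, the first base of each at 149760001, 149790001, 149850001 and 149860001. Stimulation of spleen changed 0 of 4, against 2.82% of bins called genome-wide, and 0 passed an unadjusted p of 0.05. The lowest p was in the bin of site 2, with 2.36%, 3.26% and 0% of its bases covered in stimulated and 0% in all 3 unstimulated libraries (difference 1.87 points, SE 0.974, adjusted p = 0.338 by limma), so that it entered the test through stimulated libraries alone. In CH12F3 0 of 4 bins were called and 0 passed an unadjusted p of 0.05, where 0% were called genome-wide. The bin of site 3 had the lowest p there, with 5.07%, 3.82%, 3.63% and 2.19% in stimulated and 7.27%, 5.41% and 4.83% in unstimulated libraries (difference -2.16 points, SE 0.968, adjusted p = 1.0 by limma). It was lower in stimulated cells in each of the 3 pairs of same-numbered libraries, which the labels do not say are paired. With the replicate number as a block the difference was -1.66 points (SE 0.698, adjusted p = 0.903 by limma).

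Of the window, 1.02%, 0.907% and 1.22% was covered in stimulated i3CBEs, against 1.82%, 1.68%, 1.56% and 1.44% in stimulated CH12F3. The groups did not overlap, and how many other tiles of 150 kb showed the same was not counted. The means were 1.05 ± 0.160 (n = 3) and 1.63 ± 0.162 (SD, n = 4), a difference of -0.578 points whose exact permutation p of 0.0286, the smallest possible, became 0.0857 after adjustment. Most of it lay at site 1, in the bin at 149760001, with 6.64%, 6.44% and 8.64% in i3CBEs and 13.6%, 15.3%, 13.4% and 12.1% in CH12F3. By limma that bin differed by -6.37 points (SE 1.66, adjusted p = 0.136), and 0 of 4 bins were called, against 0.0782% genome-wide, with 1 at an unadjusted p under 0.05. With 10000 top peaks this bin differed by 3.12 points the other way. Peaks of the i3CBEs lists were narrower over the whole genome, with median widths of the top peaks of 238, 252 and 281 bp against 423, 346, 444 and 300 bp, and i3CBEs had a control of its own. The part of either in the difference was not tested.

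Rad21 in CH12F3 and in spleen did not differ in coverage of the window beyond the spread between libraries, at 1.73 ± 0.234% (n = 7) and 1.39 ± 0.622% (SD, n = 6). Within stimulation states the mean difference was 0.360 points (exact permutation p = 0.194, adjusted 0.3). With 10000 top peaks it was 0.490 points (adjusted exact p = 0.0321), and with all deposited peaks it turned to -1.03 points. By limma 0 of 4 bins were called, against 19.0% genome-wide, and 1 had an unadjusted p under 0.05. This was the bin of site 2, at 1.84 points higher in CH12F3 (SE 0.662, adjusted p = 0.0650), which was called when stimulated splenic replicate 1 was left out (adjusted p = 0.0464 by limma), replicate 2 (0.0145) or all 3 long lists (0.0372).

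With all deposited Rad21 peaks more bins could be tested, and none was called in any of these comparisons by limma. Stimulation gave 0 of 15 bins in spleen (0.00236% genome-wide, 0 at an unadjusted p under 0.05) and 0 of 7 in CH12F3 (0% and 0). For i3CBEs against CH12F3 it was 0 of 6 (0.0491% genome-wide, 1 at an unadjusted p under 0.05), and for CH12F3 against spleen 0 of 15 (8.26% and 4).

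**Figure D4:**
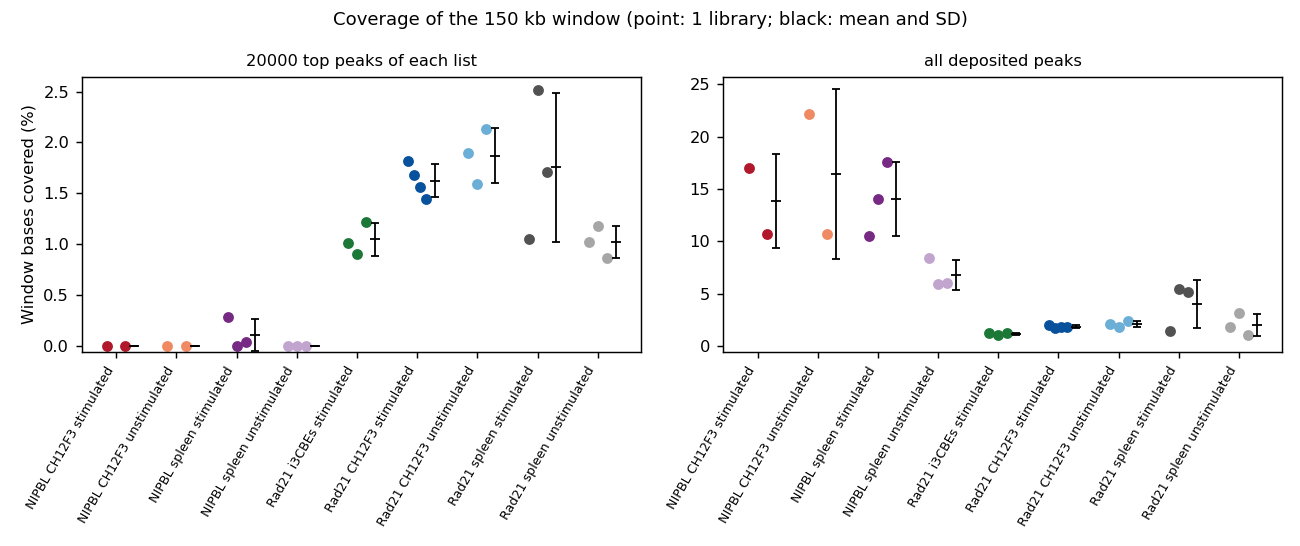
Percent of the 150 kb window covered by the 20000 top peaks (left) and by all deposited peaks (right) of each library, by group, with the mean and SD in black and a separate linear axis in each panel. NIPBL is near 0% on the left and between 5.89% and 22.1% on the right, while Rad21 lies between 0.866% and 2.51% on the left.

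NIPBL had few strong peaks in the window. In 8 of 10 lists none of the 20000 top peaks lay in the window, and the others held 4 (stimulated splenic replicate 1) and 1 (stimulated splenic replicate 3). These 5 peaks were 52 to 179 bp wide, with folds of 6.65 to 7.18, and none lay over a Rad21 site. The median 150 kb tile had 0% or 0.034% of its bases covered by the top peaks of a NIPBL list. Low coverage was therefore not particular to this window. Coverage of the window by top peaks was 0% in all 4 CH12F3 libraries and in unstimulated spleen, and 0.287%, 0% and 0.0393% in stimulated spleen. In spleen this was a difference of -1.33 points from Rad21, with means of 0.0543 ± 0.115 and 1.39 ± 0.622 (SD, n = 6 each, exact p = 0.005, adjusted 0.03). In CH12F3 the difference from Rad21 was -1.75 points (n = 4 and 7, exact p = 0.00667, adjusted 0.03), and the adjusted p was between 0.05 and 0.0857 when any NIPBL library or any unstimulated Rad21 library was left out. Without the 3 long Rad21 lists the splenic difference was -0.943 points (adjusted exact p = 0.0857). In these fits the NIPBL and Rad21 groups still did not overlap, and fewer libraries raise the smallest exact p possible.

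The bins of 10 kb give no further test of NIPBL against Rad21 among top peaks. The 4 bins tested in the window are those of the Rad21 sites and passed the coverage filter through Rad21, so that lower values for NIPBL were fixed by the filter. In these bins NIPBL top peaks covered 0% in all 4 CH12F3 libraries, and in spleen 0% but for 1.46% of the bin of site 2 in stimulated replicate 1 and 0.59% of the bin of site 4 in stimulated replicate 3. By limma 3 of 4 were called lower for NIPBL in spleen, where 35.4% of bins were genome-wide, and 4 of 4 in CH12F3, where 44.7% were, and nothing is read from these counts. With every deposited peak counted, NIPBL was called higher by limma in the bins of sites 2, 3 and 4 in CH12F3, where 88.4% of bins were genome-wide. In spleen it was called higher in the bin of site 2 (8.985 points, SE 2.60, adjusted p = 0.00715 by limma), where 22.9% of bins were. Nothing particular to the sites is read from these calls. The bin of site 1 in CH12F3 was not called (2.85 points), nor were the other splenic bins, with differences of -4.96 points at site 1, -0.22 at site 3 and 2.82 at site 4.

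With all deposited peaks NIPBL covered 17.1% and 10.7% of the window in stimulated CH12F3, 22.1% and 10.7% in unstimulated CH12F3, 10.5%, 14.1% and 17.6% in stimulated spleen, and 8.45%, 5.89% and 6.02% in unstimulated spleen. In CH12F3 the higher value of each state, 17.1% in stimulated and 22.1% in unstimulated cells, was that of replicate 1, whose peak names give no control, while those of replicate 2 do. In spleen no NIPBL list names a control and every Rad21 list does, so control and antibody cannot be told apart there, and the part of the control in the CH12F3 values was not tested. All 10 values lay above the median 150 kb tile of the same list, which was 3.19% to 5.96%. Rad21 then covered 1.05% to 5.47% in spleen and 1.78% to 2.40% in CH12F3, so NIPBL was higher by 7.41 points in spleen and by 13.2 points in CH12F3 (adjusted exact p = 0.03 each). In CH12F3 the NIPBL lists held 1070647 to 1321413 peaks and the Rad21 lists 95464 to 271662. The median tile of the Rad21 lists was 0.323% to 0.942% in CH12F3 and 0.308% to 4.84% in spleen. The part of list length in these differences was not tested. By limma 10 of 15 bins in spleen and 13 of 15 in CH12F3 were called higher for NIPBL, against 22.9% and 88.4% of bins genome-wide. NIPBL peaks of the window had a median width of 145 bp and a median fold of 3.73, and 38.7% had the smallest width in these lists, 51 bp. The 13 shorter Rad21 lists held 6 to 9 window peaks each, and the 3 long ones 40 to 48.

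At the Rad21 sites NIPBL was uneven. A deposited NIPBL peak of any rank overlapped site 1 in 10 of 10 lists, site 2 in 7, site 3 in 2 and site 4 in 3. Site 1 is also the widest, at 2265 bp against 383 to 829 bp, and such counts were not made for other stretches of equal width. At site 1 its folds ran from 2.83 to 6.94. Of the 1539 bases of sites 3 and 4, NIPBL peaks covered 1.69% and 3.31% in stimulated CH12F3, 0% and 0% in unstimulated CH12F3, 0%, 0% and 3.31% in stimulated spleen, and 14.4%, 0% and 3.31% in unstimulated spleen. In every list but unstimulated splenic replicate 1 this share was under the share of the whole window that NIPBL covered. Over the bases of all 4 sites together the NIPBL share was above that of the window in 8 of 10 lists, from 27.1% beside 10.7% in unstimulated CH12F3 replicate 2 to 7.12% beside 6.02% in unstimulated splenic replicate 3, and below it in stimulated splenic replicate 1 and unstimulated splenic replicate 2.

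In spleen the bin most covered by NIPBL, on the mean of either group, was that at 149840001, which ends before site 3 and holds none of the Rad21 sites. In stimulated spleen 38.9%, 43.3% and 47.2% of its bases were covered, and in unstimulated spleen 18.7%, 10.6% and 13.1%, so the groups stood well apart. The difference was 29.0 points (SE 5.64, adjusted p = 0.000933 by limma), higher in 3 of 3 libraries, where 0.564% of 255822 bins were called higher genome-wide. With equally long lists of 800000 peaks it was 34.1 points (adjusted p = 4.51e-05 by limma). The call was lost without unstimulated replicate 2 (27.2 points, adjusted p = 0.118) or without unstimulated replicate 3 (28.5 points, adjusted p = 0.0858 by limma), and over all 6 such fits the adjusted p was 2.43e-06 to 0.118. In CH12F3 this bin had 17.0% and 23.5% in stimulated cells and 37.4% and 18.7% in unstimulated cells, and by limma 0 of 15 bins were called there, 2 having an unadjusted p under 0.05, against 0% genome-wide. Rad21 peaks of any rank covered 0%, 0.51% and 1.53% of it in stimulated spleen and 0% in the other 13 lists.

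**Figure D5:**
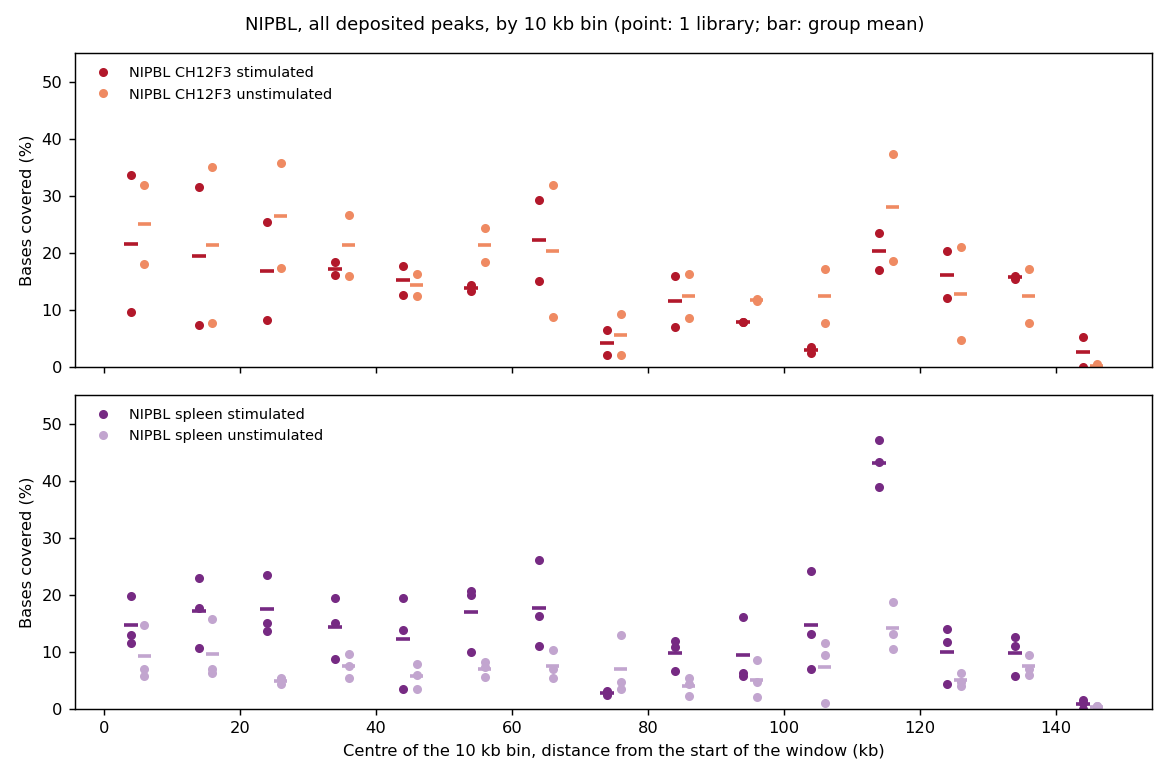
Percent of each 10 kb bin covered by all deposited NIPBL peaks in CH12F3 (top) and spleen (bottom), against the bin's centre in kb from the start of the window, with 1 point per library and bars at group means. In spleen the stimulated points of the bin before site 3 lie between 38.9% and 47.2%, above all unstimulated points of the panel, while CH12F3 groups overlap in most bins.

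A second bin, at 149750001, also passed in spleen, with 23.4%, 15.1% and 13.7% in stimulated and 4.26%, 5.22% and 5.36% in unstimulated libraries (12.5 points, SE 3.35, adjusted p = 0.0439 by limma). Its call was kept in 1 of the 6 fits that left out a library and was lost with lists of 800000 peaks (11.4 points, adjusted p = 0.0503 by limma), and over those 6 fits the adjusted p was 0.0453 to 0.272. Over the whole window the stimulated splenic libraries had 14.1 ± 3.54% and the unstimulated ones 6.79 ± 1.44% (SD, n = 3 each), which did not overlap. That difference of 7.28 points had the smallest exact permutation p possible, 0.1, and 0.225 after adjustment. How many other tiles of 150 kb had groups that did not overlap was not counted. In CH12F3 stimulation gave -2.55 points (exact permutation p = 0.667), with overlapping groups. Among the top peaks, NIPBL left no bin of the window that could be tested for stimulation, where 2.99% of bins were called in spleen and 0% in CH12F3 genome-wide, nor any for CH12F3 against spleen, where 1.36% were. CH12F3 and spleen differed by 4.72 points of the window for NIPBL (15.1 ± 5.55%, n = 4, and 10.4 ± 4.66%, n = 6; exact permutation p = 0.18, adjusted 0.285). By limma 0 of 15 bins were called between them, with 6 at an unadjusted p under 0.05, against 1.91% genome-wide.

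NIPBL peaks rarely lay at the same bases in all lists. In the window, 59 bases (0.0393%) were covered in 10 of 10 lists, against 0.464% of chromosome 7 and 0 bases in its median 150 kb tile. The longest such stretch was chr7:149847009-149847050 (42 bp), inside the bin at 149840001 and 10.8 kb before site 3. Peaks over it were 1668, 1736 and 2992 bp wide in stimulated spleen and 259, 301 and 464 bp wide in unstimulated spleen, and in CH12F3 they were 202 to 924 bp wide. The stimulated splenic peaks were thus the widest of the 10. Their folds were 4.82, 4.22 and 5.15, and those of unstimulated spleen 6.18, 2.90 and 2.89. On chromosome 7 as a whole, 42.5% of 1016 tiles of 150 kb held some base shared by all 10 lists, so a stretch of this kind was common.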

How the data were processed

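Peak lists from NIPBL or Rad21 ChIP-seq were used for 26 samples, and 5 input samples of the 31 were not analysed here. Reads were aligned with Bowtie2 to mm9 and peaks called with MACS2, per the submitters' processing notes, and their versions were not given in the sources used here. Each peak's deposited values are a score, a fold enrichment ratio over background, and -log10 of a p-value and of a q-value. Read depth is unknown. Peak names, per the file headers and peak records deposited by the authors, name a control for all Rad21 lists and for NIPBL CH12F3 replicate 2 only. Where a control is named, stimulated and unstimulated samples had different ones, which cannot be told apart from the groups.

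The 20000 top peaks of a list were those of highest -log10 p (ties by fold, then position), and the percent of bases they covered was computed for the window and for 10 kb bins of the genome. Window values were compared by two-sided exact permutation tests, within stimulation state where cell types or antibodies were compared, with Benjamini-Hochberg adjustment over 9 comparisons. Bins covered in 2 or more libraries were tested with limma 3.58.1 (R 4.3.3), adjusted over all bins tested. The tests were checked on simulated data. Python 3.11.15, numpy 2.4.6, pandas 2.3.3, statsmodels 0.14.6 and matplotlib 3.10.9 were used. Named were all 4 Rad21 sites, every called bin of the window and, where none was called, the bin with the lowest p. Alternatives were 10000, 40000 or all peaks, 5 kb bins, bins covered in 1 or more libraries, a replicate block and leaving out each library. The window, its members and the tests were chosen with earlier results of these data known, and the fits on all deposited NIPBL peaks with 800000 peaks, and those without the 3 long lists, were added after seeing the data.

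Same-numbered Rad21 samples of stimulated and unstimulated CH12F3 deviated together (r = 0.376 to 0.651 over 3 pairs). Some unlike-numbered ones did so too, with r = 0.438 for stimulated 1 with unstimulated 3 and 0.358 for stimulated 3 with unstimulated 1. It was 0.607 for stimulated 4 with unstimulated 2, and -0.620 to -0.411 for the remaining unlike-numbered pairs. The correlations therefore do not show that the numbers pair these samples, and the labels do not say so. For NIPBL in CH12F3, with 2 libraries in each state, r was 0.313 for same numbers and -0.313 for unlike ones. In the other pairs of groups examined, same-numbered samples had r of -0.119 to 0.107. Whether replicates were separate animals or cultures is not in the labels, and the p-values therefore reflect only the spread among these samples, possibly technical. The cell type tag of the CH12F3 and i3CBEs Rad21 samples names splenic B cells, and their titles and source were followed.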

Additional observations from a re-analysis of the deposited data

Results flagged for a closer look

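In stimulated CH12F3, replicate 1 lay far above the other 3 Rad21 libraries at site 2, and it was the highest at all 4 sites. Its fold enrichment there was 11.6, against 7.53, 6.92 and 6.94, and its peaks covered 3.59% of the bin at 149790001, both with 20000 top peaks and with all deposited peaks. The last of its 20000 top peaks had a fold of 8.64, against 5.68, 5.49 and 5.73 in replicates 2 to 4. Chance sets apart about 1 in 20 sets of values in this way. The 14 sets tested were all measures of this group, the only one with 4 libraries, and were not independent.

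For NIPBL, with all deposited peaks, the bin at 149780001 had differences of opposite sign with stimulation in the 2 cell types, neither of which was called. In spleen the difference was 9.87 points (adjusted p = 0.187 by limma; 9.95%, 20.0% and 20.7%, against 7.33%, 5.49% and 8.22% in unstimulated cells). In CH12F3 the difference was -7.59 points (adjusted p = 1.0 by limma; 13.3% and 14.3% in stimulated and 24.3% and 18.5% in unstimulated cells). The difference between cell types was not tested.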

How the results depend on the processing

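The direction of NIPBL against Rad21 depended on how many peaks of each list were counted. With all deposited peaks the window difference was 7.41 points in spleen and 13.2 in CH12F3, with 10 and 13 bins called higher; in spleen the bins at 149790001 and 149860001 were 8.985 and 2.82 points higher, and in CH12F3 the bins at 149760001, 149790001, 149850001 and 149860001 were 2.85, 18.5, 9.92 and 9.59 points higher. With 10000 top peaks the splenic window difference was -0.231 points (adjusted p = 0.18 by the exact test), with 0 bins called, and 2 were called in CH12F3. Bins of 5 kb gave 3 and 4 calls. With the replicate block the window differences were -1.33 points in spleen (adjusted p = 0.0938 by the exact test) and -1.75 in CH12F3 (0.3, the smallest unadjusted p possible being 0.125). The splenic value was also at the smallest unadjusted p possible with this block. Numbers did not pair the antibodies (r = -0.107 to 0.0351). Without the 3 long splenic lists the splenic difference was -0.943 points. Leaving out 1 library gave -1.82 to -1.68 points in CH12F3.

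For CH12F3 against spleen, Rad21 differed by 0.490 points with 10000 top peaks and by -1.03 with all peaks, and the bin at 149790001 by -0.882 with all peaks. Bins called were 0 to 1 when 1 library was left out and 1 without the long lists. NIPBL differed by 0 points with 10000, 0.0122 with 40000 and 4.72 with all peaks. With 10000 top peaks i3CBEs differed from CH12F3 by 0.0461 points, and by 3.12 in the bin at 149760001. Stimulation moved NIPBL by 0 points in spleen with 10000 peaks, and in CH12F3 by -0.20 with 40000 and -2.55 with all peaks. In spleen 2 bins were called with all peaks, 1 with 800000 peaks, 1 with the replicate block (which left the bin at 149750001 uncalled), and 0 to 6 when 1 library was left out. With 10000 top peaks 3 Rad21 sites were found, in 3, 11 and 12 libraries, so that 0 were in all 16. With 40000 top peaks 5 sites were found, 3 of them in all 16, and with all peaks 20, 4 of them in all 16. The cause of these changes was not tested. The replicate block changed no other call.

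The number of libraries limits the tests, since 3 against 3 cannot give an exact p under 0.1. Read depth is unknown, and its part in the length of the lists was not tested.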
